A study of Mus musculus with 12 samples.

Results

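The elastic fibre and fibronectin genes were taken as the 10 rows of the expression table with the symbols Fn1, Eln, Fbln1, Fbln2, Fbln5, Fbn1, Mfap2, Mfap4, Mfap5 and Emilin1, out of 16970 gene rows. All 10 were listed in all 12 liver libraries. Levels are in FPKM, the fragments counted for a gene scaled to the length of its gene model and to the depth of the library. Of the 10 genes, 9 reached 1 FPKM in at least 3 libraries and entered the test with 10805 genes in all, and Mfap5 did not. Mfap2 passed on 1 MDR and 3 MDR_H libraries and Fbln5 on the 3 MDR and 3 MDR_H libraries, so both passed only through the model in which they were higher, and no count below over the tested genes stands for all 10.

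Livers of mice in cholestasis, in which bile is retained, gave 4 groups of 3 libraries, titled BDL, BDL_H, MDR and MDR_H. BDL livers had 7 days of bile duct ligation, and BDL_H livers had the same ligation and received the bile acid hyodeoxycholic acid (HDCA) for 4 days from 3 days after surgery, dosed at 100 mg/kg. MDR was taken as the Abcb4-/- mice of the series description, which lack a transporter that moves phosphatidylcholine into bile, and MDR_H as such mice given HDCA at 100 mg/kg for 21 days from an age of 60 days. The same starting age of 60 days is given for untreated MDR. Ages at sampling are not given. The link from MDR to Abcb4-/- rests on the titles and the description, since no label of a library names Abcb4, and the labels give neither strain nor sex. The untreated and treated groups of a model share its ligation or its allele, livers without cholestasis were not analysed here, and a vehicle is not named. Time from injury and HDCA duration differ between the models and cannot be told apart from the model itself, and neither can age, which is given for only 1 model.

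Library depth ran from 34297570 to 40492563 fragments. Abcb4 itself was at 52.8 to 167.8 FPKM in BDL, 72.1 to 178.4 in BDL_H, 150.1 to 181.3 in MDR and 129.1 to 165.3 in MDR_H, so its level was not lower in the libraries labelled MDR. A gene-level value does not show if a transcribed allele is disrupted. BDL replicate 1 and BDL_H replicate 2 stood apart, with a median log2(FPKM + 1) over the genes tested of 2.48 and 2.56 against 2.81 to 2.88 in the other BDL and BDL_H libraries. Expression of the Y-linked Uty, Kdm5d, Ddx3y and Eif2s3y summed to 16.1 to 19.6 FPKM in all 6 BDL and BDL_H libraries and to 20.1 in MDR replicate 1, but to at most 0.016 in the other MDR and MDR_H libraries. Y-linked expression thus separated the models in 11 of the 12 libraries, so sex cannot be told apart from the model except through MDR replicate 1. Hepatocyte markers (Alb, Ttr, Apoa1, Apob, Fgb and Cps1) summed to 30971.3 FPKM or more in every library. Whether replicates are separate animals is not stated in the labels, and p-values then reflect only a spread among libraries that may be technical.

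Elastic fibres give tissues their recoil. Elastin, the product of Eln, is laid down as tropoelastin on a scaffold of microfibrils built from fibrillin-1 (Fbn1) and the microfibril-associated proteins, and lysyl oxidases then crosslink it. Fibulins and EMILIN-1 sit between the elastin core and the microfibrils; fibulin-5 brings tropoelastin and crosslinking enzymes together. Fibronectin (Fn1) is a glycoprotein that cells assemble into fibrils through integrins, and its matrix in turn carries fibrillin. In liver, hepatocytes secrete the soluble plasma form of fibronectin in large amounts, while portal fibroblasts, stellate cells and vessel walls are the known sources of elastic fibre proteins, which accumulate in portal tracts and scars. In bulk liver RNA, fewer cells of a type and less RNA per cell cannot be told apart.

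The RefSeq promoter table (GRCm38.p6, 250 bases before to 50 bases after a start site) held 6 of the 10 genes: Fbn1, Mfap2, Emilin1, Fbln2, Fbln5 and Fbln1. Fn1, Eln, Mfap4 and Mfap5 had no entry. The 3 fibulins are shown because their levels below do not move alike: Fbln1 and Fbln5 differed between the models and Fbln2 did not pass the test. The windows are chr15:85205699-85205998 on the plus strand for Fbln1, chr6:91212514-91212813 on the plus strand for Fbln2 and chr12:101819070-101819369 on the minus strand for Fbln5, written 5′ to 3′ in the direction of transcription, the first listed start of each gene. Capitals mark the GC box, GGGCGG or its reverse complement CCGCCC.
Fbln1: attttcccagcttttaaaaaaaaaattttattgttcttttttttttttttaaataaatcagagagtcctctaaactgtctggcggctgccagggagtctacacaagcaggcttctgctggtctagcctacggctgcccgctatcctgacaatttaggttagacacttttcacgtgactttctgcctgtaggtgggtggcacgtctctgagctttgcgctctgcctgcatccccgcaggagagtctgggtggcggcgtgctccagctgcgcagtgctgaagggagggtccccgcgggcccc
Fbln2: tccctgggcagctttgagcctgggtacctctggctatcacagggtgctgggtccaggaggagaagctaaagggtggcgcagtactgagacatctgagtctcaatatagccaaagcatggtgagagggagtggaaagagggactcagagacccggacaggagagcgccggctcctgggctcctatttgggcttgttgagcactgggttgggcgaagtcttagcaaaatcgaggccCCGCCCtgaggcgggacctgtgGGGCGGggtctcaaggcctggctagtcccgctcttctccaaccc
Fbln5: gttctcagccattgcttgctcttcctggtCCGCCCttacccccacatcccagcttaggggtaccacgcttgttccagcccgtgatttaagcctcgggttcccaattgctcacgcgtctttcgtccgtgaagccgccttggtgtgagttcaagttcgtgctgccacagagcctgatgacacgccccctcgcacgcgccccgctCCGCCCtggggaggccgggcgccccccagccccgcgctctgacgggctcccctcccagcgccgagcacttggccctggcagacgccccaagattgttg
The GC box was found 2 times in the Fbln2 window, 2 times in the Fbln5 window and 0 times in this Fbln1 window. A later start of Fbln1, chr15:85205758-85206057, held 2. Searched on both strands, GGGCGG occurred in 35.7% of all 32851 promoters of the table, the TATA box TATAAA in 13.6%, the AP-1 site TGANTCA in 7.81% and the SMAD palindrome GTCTAGAC in 0.213%. The last 3 motifs had 0 matches in the 9 windows listed for the 6 genes. The other start of Fbln5, chr12:101818435-101818734, held 0 GC boxes. The count thus differed as much between starts of 1 gene as between the fibulins, and a match is a description, not a bound site.

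Fn1 (chromosome 1, 71585520 to 71653200, minus strand, GRCm38) was by far the most abundant of the set. Its FPKM was 277.8, 281.5 and 269.5 in BDL, 239.6, 240.5 and 204.5 in BDL_H, 250.6, 223.1 and 229.0 in MDR, and 173.5, 199.5 and 217.5 in MDR_H. As deposited, each treated group lay wholly below its untreated group, and BDL lay above all other libraries. Group means were 276.3 ± 6.16 in BDL and 228.2 ± 20.6 in BDL_H, and 234.2 ± 14.5 in MDR and 196.9 ± 22.1 in MDR_H (SD, n = 3 each).

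These Fn1 values have a property that bears on every comparison of them. A gene counted in whole fragments has FPKM values that convert back to whole numbers at the depth of its library, and 16968 of the 16970 genes did so in all 12 libraries within 0.02 of a fragment. Fn1 and Mmp9, a gelatinase that is not in the set, were the 2 exceptions. Fn1 was whole at its own depth in 6 libraries, all 3 BDL, BDL_H replicate 1, MDR replicate 2 and MDR_H replicate 1. The value listed for MDR replicate 1 converted to 74512.11 fragments at its own depth but to 78601 at that of MDR_H replicate 2, and the value listed for MDR_H replicate 2 converted to 59325 at the depth of MDR replicate 1. In the same way, the value listed for MDR replicate 3 was whole (75869) at the depth of MDR_H replicate 3, and that of MDR_H replicate 3 was whole (68082) at the depth of MDR replicate 3, each within 0.001 of a fragment. The BDL_H values of replicates 2 and 3 converted to 80596.72 and 69509.47 and were whole at no library's depth.

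Fn1 comparisons are therefore given in 3 versions, the last 2 chosen after these values were seen. With the deposited values, the difference in log2(FPKM + 1) with HDCA was -0.28 ± 0.12 (SE) in BDL and -0.25 ± 0.12 in MDR (limma adjusted p = 1 for both). With only the 6 libraries that were whole at their own depth, the differences were -0.20 and -0.36, with 1 library left in each of BDL_H, MDR and MDR_H. With the 4 values read in the library at whose depth they were whole, MDR became 199.5, 223.1 and 217.5 FPKM and MDR_H became 173.5, 250.6 and 229.0. The MDR groups then overlapped, 1 BDL_H library was left, and the Fn1 difference with HDCA was 0.01 in MDR and -0.20 in BDL. So the direction of Fn1 with HDCA in MDR depended on which library its values belonged to. Untreated MDR against untreated BDL gave Fn1 differences of -0.24 ± 0.12 as deposited (limma adjusted p = 0.182), -0.31 with the 6 whole values and -0.37 by matching depth, negative in all 3 versions.

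**Figure D1:**
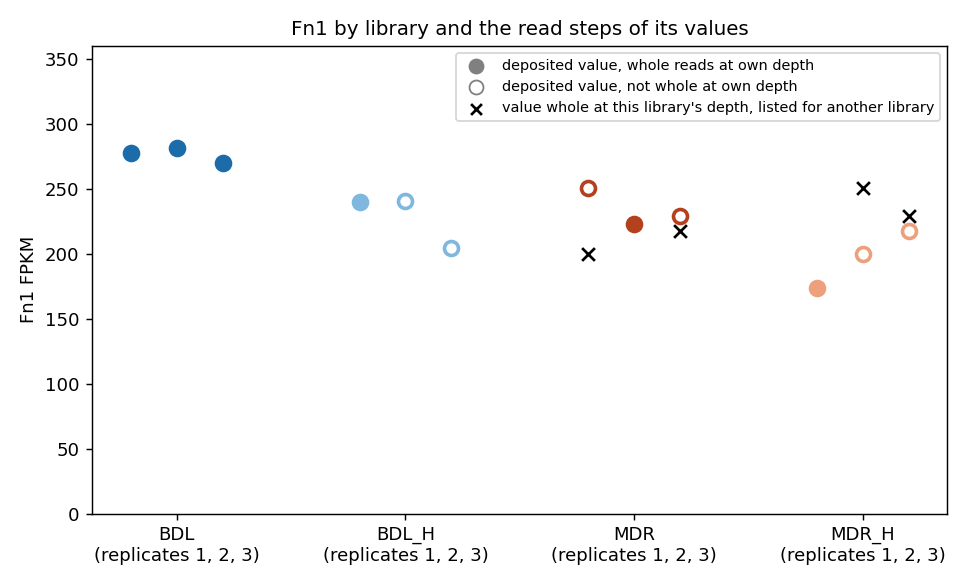
Fn1 FPKM (vertical axis) for replicates 1, 2 and 3 of each group. Filled circles are deposited values that are whole fragments at their own library's depth, open circles are deposited values that are not, and crosses are the values that are whole at that library's depth but listed for another; crosses put MDR at 199.5 to 223.1 and MDR_H at 173.5 to 250.6.

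Eln (chromosome 5, 134702593 to 134747323, minus strand) encodes the elastic core itself. Eln FPKM was 0.937, 3.31 and 4.52 in BDL, 6.37, 5.83 and 4.62 in BDL_H, 6.91, 12.3 and 9.11 in MDR, and 4.29, 9.58 and 7.44 in MDR_H. BDL replicate 1 was far below every other library, BDL_H and MDR lay wholly above BDL, and MDR_H overlapped all other groups. Means were 2.92 ± 1.82, 5.61 ± 0.894, 9.44 ± 2.72 and 7.1 ± 2.66 FPKM in that order (SD, n = 3 each), from 146 to 1832 fragments per library.

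The microfibril genes comprised the fibrillin and 3 genes of microfibril-associated proteins. Fbn1 (chromosome 2, 125300594 to 125507993, minus strand), the fibrillin that forms the microfibril backbone, was at 0.184, 0.902 and 1.05 FPKM in BDL, 1.63, 1.21 and 2.3 in BDL_H, 2.1, 4.06 and 3.12 in MDR, and 1.36, 3.12 and 2.38 in MDR_H. Again BDL replicate 1 was the lowest library of the 12 and both BDL_H and MDR lay above BDL. Mfap4 (chromosome 11, 61485431 to 61488900, plus strand), a fibrinogen-related protein that binds elastin and fibrillin, was at 1.25, 2.05 and 2.12 FPKM in BDL, 3.9, 3.57 and 3.5 in BDL_H, 7.05, 15.1 and 10.2 in MDR, and 7.67, 12.4 and 8.13 in MDR_H. The Mfap4 levels formed 3 separate ranges, BDL below BDL_H and BDL_H below both MDR groups, which overlapped each other. Mfap2 (chromosome 4, 141010418 to 141015984, plus strand), a small glycoprotein on the microfibril surface, was at 0.254, 0.249 and 0.333 FPKM in BDL, 0.329, 0.82 and 0.843 in BDL_H, 0.542, 1.65 and 0.553 in MDR, and 1.31, 1.88 and 1.59 in MDR_H. MDR replicate 2 reached the MDR_H range while the other 2 MDR libraries did not, and these Mfap2 values rest on 14 to 99 fragments. Mfap5 (chromosome 6, 122505845 to 122529290, plus strand), its paralogue, had 0 to 13 fragments per library and at most 0.213 FPKM, in BDL_H replicate 3. It was listed at 0 in 1 BDL_H, 1 MDR and 2 MDR_H libraries. Mfap5 was too low to enter the test, so no difference is given for it.

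Emilin1 (chromosome 5, 30913402 to 30921277, plus strand) encodes EMILIN-1, a glycoprotein at the elastin and microfibril interface that also restrains TGF-beta maturation. Its FPKM was 2.44, 6.21 and 8.19 in BDL, 7.21, 5.42 and 8.21 in BDL_H, 12.1, 16 and 15.5 in MDR, and 9.74, 15.2 and 13.7 in MDR_H. The libraries of the 2 models did not overlap, whereas those of BDL and BDL_H did. Emilin1 was the second most abundant gene of the set in each of the 4 groups, ahead of Eln in BDL and BDL_H and of Mfap4 in MDR and MDR_H, though its values overlapped those of the next gene in all 4.

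Among the fibulins, Fbln1 (chromosome 15, 85205949 to 85286535, plus strand), which binds fibronectin and elastin, was at 0.39, 0.634 and 0.789 FPKM in BDL, 1.25, 1.3 and 1.33 in BDL_H, 3.26, 5.67 and 4.98 in MDR, and 3.29, 6.55 and 3.67 in MDR_H. Fbln5 (chromosome 12, 101746565 to 101819055, minus strand), which organises elastin assembly, was at 0.303, 0.422 and 0.576 FPKM in BDL, 0.916, 0.971 and 0.98 in BDL_H, 1.97, 2.97 and 2.47 in MDR, and 1.85, 2.38 and 2.14 in MDR_H. Both genes formed the same 3 steps as Mfap4, and their 3 BDL_H values were close together. Fbln2 (chromosome 6, 91212455 to 91272540, plus strand), a larger fibulin found in vessel walls and portal tracts, was at 0.751, 1.11 and 1.47 FPKM in BDL, 1.32, 1.08 and 2.01 in BDL_H, 1.24, 2.44 and 1.88 in MDR, and 1.42, 1.91 and 1.88 in MDR_H. All 4 groups of Fbln2 overlapped one another, and BDL replicate 1 was again the lowest library.

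A ratio of 2 genes within a library does not depend on how the library was scaled. The ratio of Fbln1 to Fbln2 FPKM was 0.519, 0.572 and 0.537 in BDL, 0.951, 1.21 and 0.662 in BDL_H, 2.64, 2.32 and 2.64 in MDR, and 2.32, 3.43 and 1.95 in MDR_H. It was thus nearly constant in BDL, including replicate 1, higher in every BDL_H library and higher again in every MDR and MDR_H library. The ratio of Fbln5 to Fbln2 showed the same steps, 0.382 to 0.403 in BDL, 0.487 to 0.902 in BDL_H, 1.22 to 1.59 in MDR and 1.14 to 1.31 in MDR_H. Fbln2 thus had the higher FPKM of the pair in BDL, and Fbln1 in MDR and MDR_H. The ratio of Eln to Emilin1 lay at 0.384 to 0.552 in BDL, 0.563 to 1.07 in BDL_H, 0.571 to 0.77 in MDR and 0.441 to 0.628 in MDR_H, and BDL_H replicates 1 and 2 had the 2 highest values. The pairs of genes were chosen after their values were seen, and with 3 libraries a group these ratios are given with no test.

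**Figure D2:**
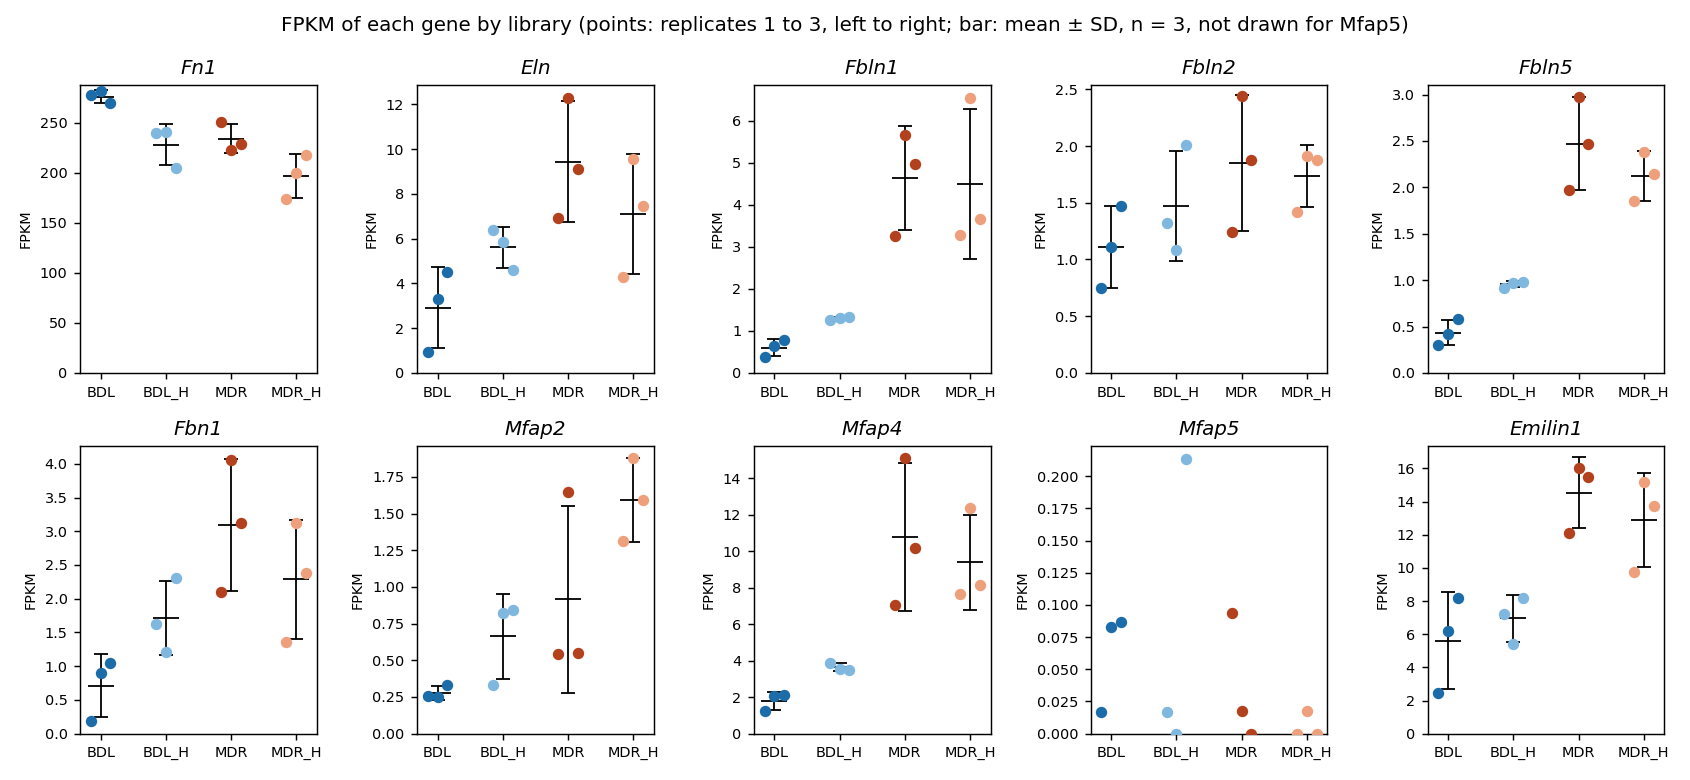
FPKM (vertical axis, a separate linear scale per gene) of the 10 genes in the 12 libraries by group. Points are replicates 1 to 3 from left to right and black bars the mean ± SD, not drawn for Mfap5; for Fbln1, Fbln5 and Mfap4 the points lie lowest in BDL, between in BDL_H and highest in the 2 MDR groups, and for Fn1 highest in BDL.

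Within a group the genes other than Fn1 were high or low in the same libraries. Of these 8 tested genes, 7 were lowest in BDL replicate 1 and 8 were highest in BDL replicate 3. All 8 were lowest in MDR replicate 1 and highest in MDR replicate 2, and all 8 were lowest in MDR_H replicate 1 and highest in MDR_H replicate 2. In BDL_H replicate 3 was highest for 6 of the 8 genes and replicate 1 for 2, while replicates 1 and 2 were each lowest for 3 and replicate 3 for 2. Their summed FPKM, with Mfap5, ran from 6.53 to 19.1 in BDL, 20.2 to 24 in BDL_H, 35.2 to 60.2 in MDR and 30.9 to 53.1 in MDR_H. Fn1 made up 93.4 to 97.7% of the summed FPKM of all 10 genes in BDL and 78.7 to 87.7% in MDR, as deposited.

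HDCA was first compared with no HDCA after ligation. Eln, Fbn1, Mfap4, Fbln1 and Fbln5 were each higher in all 3 BDL_H libraries than in all 3 BDL libraries, with means 1.92, 2.4, 2.02, 2.14 and 2.2 times those of BDL, but none passed the test. limma called 0 of the 9 genes tested and 0 of all 10805 genes (0% called). At an unadjusted p under 0.05 stood 6 of the 9, those 5 and Fn1, against 2.25% of all genes. limma-voom on recovered fragments called 0 and put 5 of 8, with Fn1 left out, under that level against 3.08% of genes. A fit to only the libraries compared put 4 of 9 under it, against 1.18% of genes. The genes other than Fn1 moved together across libraries, so these counts are not of separate results. Groups did not overlap, with BDL_H higher, for 5 of the 9 genes and for 3.43% of all genes. Differences were above 0 for 8 of the 9 genes and for 58.8% of all genes, with a median of 0.45 in log2(FPKM + 1) over the 9 and 0.03 over all genes.

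Single differences for HDCA in BDL, in log2(FPKM + 1), which understates changes of genes near or below 1 FPKM, were 0.87 ± 0.36 (SE) for Eln, 0.74 ± 0.24 for Mfap4 and 0.68 ± 0.27 for Fbn1. Fbln1 stood at 0.52 ± 0.22 and Fbln5 at 0.45 ± 0.13 (limma adjusted p = 1 for all 5). Emilin1 at 0.36 (95% interval -0.32 to 1.04), Mfap2 at 0.36 (-0.09 to 0.82) and Fbln2 at 0.22 (-0.21 to 0.65) had overlapping groups. The size for several genes rested on BDL replicate 1. Without it the difference was 0.43 for Eln, 0.44 for Fbn1, 0.10 for Fbln2 and -0.05 for Emilin1, while Mfap4 kept 0.59, Fbln1 0.42 and Fbln5 0.39. Without both BDL replicate 1 and BDL_H replicate 2 it was 0.40 for Eln, 0.58 for Fbn1, 0.60 for Mfap4, 0.42 for Fbln1, 0.38 for Fbln5 and 0.10 for Emilin1.

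Markers of other liver cells were read in the same libraries, and limma called 0 of them for HDCA in BDL. Stellate cell markers (Lrat, Reln, Des, Pdgfrb, Hand2 and Colec11) summed to 8.27 to 17.9 FPKM in BDL and 18.8 to 20.3 in BDL_H, with 6 of 6 differences above 0. Endothelial markers (Pecam1, Cdh5, Kdr, Stab2, Lyve1 and Vwf) summed to 11.2 to 47.5 and 43.2 to 54.6, also 6 of 6, with a median difference of 0.77. Portal fibroblast markers (Thy1, Entpd2, Cd34, Pi16, Dpt and Clec3b) summed to 5.43 to 14.2 and 9.53 to 18.6, with 3 of 4 tested above 0. Myofibroblast and smooth muscle markers (Acta2, Tagln, Myh11, Cnn1, Actg2 and Myl9) summed to 5.04 to 17.3 and 15.2 to 45.3, with 3 of 3 tested above 0. Sums overlapped between BDL and BDL_H for the last 3 lists but not for stellate cells, and the lowest sum of all 4 lists was in BDL replicate 1. The median difference was -0.04 for hepatocyte and 0.02 for macrophage markers. The part of these cell markers in the differences of the elastic fibre genes was not tested. None of the markers of the 4 lists was listed at 0 in all 12 libraries.

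The second comparison asked the same of HDCA in MDR, over 21 days in place of 4. No gene of the set passed: limma called 0 of 9, and 0 of 10805 genes in all (0% called). Only Mfap2 stood at an unadjusted p under 0.05, beside 0.565% of all genes. limma-voom likewise called 0 and put 1 of 8 under that level, beside 0.74%. A fit to only the libraries compared put 0 of 9 under it, beside 1.64%. Mfap2 was at 0.916 ± 0.638 FPKM in MDR and 1.59 ± 0.289 in MDR_H (SD, n = 3 each), a difference of 0.48 ± 0.21 (SE; limma adjusted p = 1), with overlapping groups. The other 8 differences were below 0, as were those of 64% of all genes, from -0.39 ± 0.36 for Eln and -0.32 ± 0.27 for Fbn1 to -0.05 ± 0.22 for Fbln1 and -0.04 ± 0.20 for Fbln2, with a median over the 9 of -0.15 beside -0.04 over all genes. The 95% interval for Eln, -1.19 to 0.41, and that for Emilin1, -0.85 to 0.51, leave room for a sizeable change either way. The sign of Fbln1, Fbln2, Mfap4 and Emilin1 turned in 1 to 4 of the fits that leave out 1 library. For example, Mfap4 stood at -0.15 with all libraries and at 0.11 without MDR replicate 2.

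By expression values alone, with no label for it, replicate numbers were taken to pair the MDR and MDR_H libraries. The pairs thus come from the same data, and the genes other than Fn1 moved together, so agreement within pairs is not of separate results. The genes were also read within these pairs, with values given from pair 1 to pair 3. Pair 1 set MDR replicate 1, with Y-linked expression (20.1 FPKM), against MDR_H replicate 1, without it (0.016). Eln was lower with HDCA in all 3 pairs, by log2(FPKM + 1) differences of -0.58, -0.33 and -0.26, and Fbn1 by -0.39, -0.30 and -0.28. Emilin1 (-0.28, -0.06 and -0.17) and Fbln5 (-0.06, -0.23 and -0.15) were lower in all 3 pairs too. Mfap2 was higher in all 3, by 0.58, 0.12 and 0.74. Fbln1, Fbln2 and Mfap4 were higher in 1 or 2 pairs and lower in the others.

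The difference between the models in the effect of HDCA was tested as an interaction. It was below 0, that is lower in MDR than in BDL, for 7 of the 9 genes and 65% of all genes, with a median of -0.58 beside -0.07 over all genes. Eln stood at -1.26 ± 0.52 (SE), Fbn1 at -1.01 ± 0.38, Mfap4 at -0.89 ± 0.35 and Fbln5 at -0.60 ± 0.18. These 4 were under an unadjusted p of 0.05, as were 1.85% of all genes, and none was called (limma adjusted p = 1; 0 of 10805 genes, 0% called; limma-voom also 0, with 4 of 8 and 2.72% under the unadjusted level). For Fn1 the interaction was 0.02 ± 0.17 as deposited, -0.16 with the 6 whole values and 0.22 by matching depth. Without BDL replicate 1 and BDL_H replicate 2 the interaction was -0.79 for Eln, -0.90 for Fbn1, -0.75 for Mfap4 and -0.52 for Fbln5.

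**Figure D3:**
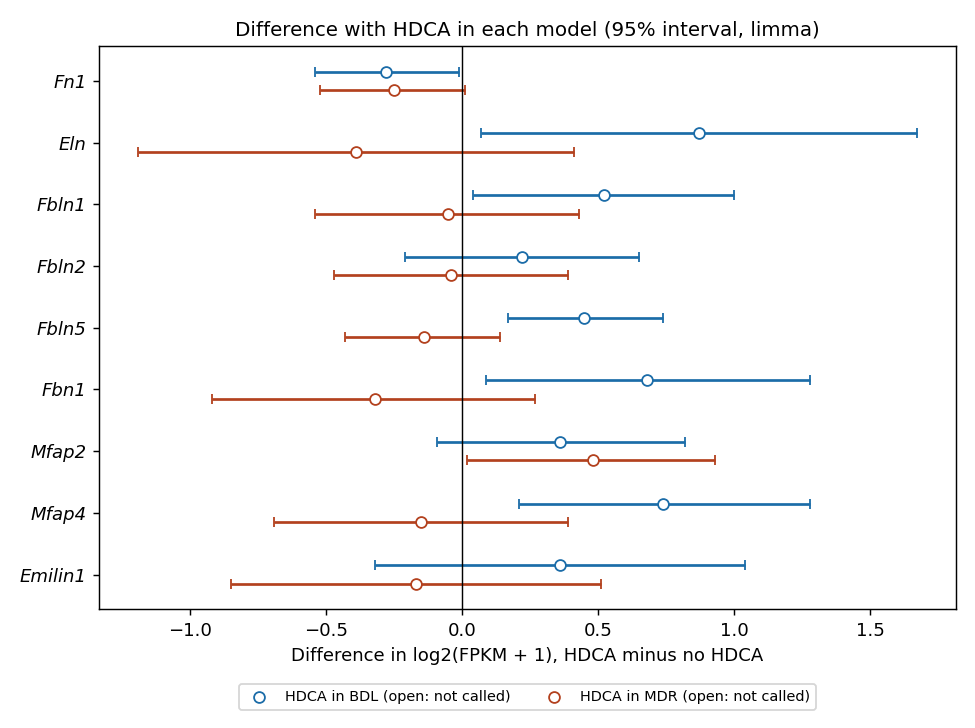
Difference in log2(FPKM + 1), HDCA minus no HDCA (horizontal axis), of the 9 tested genes in BDL (blue) and MDR (red), with 95% intervals from limma; open points were not called. In BDL 8 of the 9 points lie right of 0 and in MDR 8 of the 9 lie left of 0, with Mfap2 right of 0 in both.

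Untreated livers of the 2 models were compared next, a comparison that also sets libraries with Y-linked expression against libraries mostly without it. Fbln1, Mfap4, Fbln5, Fbn1, Eln and Emilin1 rose in MDR over BDL, Fbln1 the most on the linear scale, from 0.604 ± 0.201 to 4.63 ± 1.24 FPKM (SD, n = 3 each), 7.67 times. Mfap4 went from 1.81 ± 0.484 to 10.8 ± 4.07, which is 5.96 times, and Fbln5 from 0.434 ± 0.137 to 2.47 ± 0.501, which is 5.69 times. The means of Fbn1, Eln and Emilin1 were 4.33, 3.23 and 2.59 times those of BDL. These 6 of the 9 tested genes were called, all higher, beside 16.2% of all genes called (15.1% higher and 1.07% lower). Fbln5 among them reached 1 FPKM only in MDR and MDR_H libraries and entered the test through these. Fbln2, Mfap2 and Fn1 were not called.

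On the log2(FPKM + 1) scale the differences between untreated models were 2.03 ± 0.24 (SE) for Mfap4 and 1.79 ± 0.22 for Fbln1 (limma adjusted p = 0.00181 for both), and 1.27 ± 0.13 for Fbln5 (0.000824). Eln followed at 1.51 ± 0.36 (limma adjusted p = 0.0203), Emilin1 at 1.34 ± 0.31 (0.0178) and Fbn1 at 1.27 ± 0.27 (0.013). Mfap2 stood at 0.54 ± 0.21 (0.0964), with groups that did not overlap, and Fbln2 at 0.43 ± 0.20 (0.147). On recovered fragments, which need no added constant, limma-voom gave 2.62 for Fbln1, 2.22 for Mfap4, 2.21 for Fbln5, 2.01 for Fbn1, 1.54 for Eln and 1.18 for Emilin1, and the Eln call ended (adjusted p = 0.0513).

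FPKM of most genes was higher in MDR than in BDL, with a median difference over all genes of 0.25. Median-of-ratios scaling, which sets that median near 0, changed the split of calls over all genes from 1630 higher and 116 lower to 671 and 381, and limma-voom gave 604 and 388. Under median-of-ratios scaling all 6 calls stood: Mfap4 1.78, Fbln1 1.61, Eln 1.28, Fbln5 1.11, Fbn1 1.11 and Emilin1 1.07, with limma adjusted p from 0.00106 for Fbln5 to 0.0405 for Eln. Without MDR replicate 2 the calls of Eln (adjusted p = 0.092), Emilin1 (0.0763) and Fbn1 (0.064) ended, and without MDR replicate 3 those of Eln and Emilin1 (0.0599 each). A fit to only the 6 libraries compared ended those of Eln (0.0649) and Emilin1 (0.0643). Fbln1, Fbln5 and Mfap4 kept their calls without each single library.

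All 6 calls ended when libraries with Y-linked expression had a term of their own in the fit, an alternative added after the data were seen, which called 11 of all 10805 genes. That fit sets MDR replicate 1, the only MDR library with Y-linked expression, against the 3 BDL libraries. Fbln1 then stood at 1.42 ± 0.28 (limma adjusted p = 0.0879), Mfap4 at 1.53 ± 0.29 (0.0879) and Fbln5 at 1.05 ± 0.17 (0.0562). Eln at 1.14, Emilin1 at 1.10 and Fbn1 at 0.90 had adjusted p from 0.302 to 0.343. MDR replicate 1 lay above all 3 BDL libraries for each of the 6 genes, although it was the lowest MDR library for each.

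With HDCA in both models, 3 of the 9 genes were called, all higher in MDR_H than in BDL_H, beside 8.29% of all genes (7.36% higher). They were Fbln1 at 1.22 ± 0.22 (limma adjusted p = 0.013), Mfap4 at 1.13 ± 0.24 (0.0244) and Fbln5 at 0.67 ± 0.13 (0.0169), with means 3.48, 2.57 and 2.22 times those of BDL_H. Here too Fbln5 had entered the test only through MDR and MDR_H libraries. These treated groups differ in HDCA duration, 21 and 4 days. Eln stood at 0.25 (95% interval -0.55 to 1.05) and Fbn1 at 0.26 (-0.34 to 0.85), with overlapping groups. Emilin1 at 0.80 ± 0.31 (0.121) and Mfap2 at 0.65 ± 0.21 (0.075) had groups without overlap and were not called. The comparison shares no libraries with the one between untreated models, but both take their spread from the same fit to all 12 libraries. The 2 comparisons are thus not independent, and both set the same models against each other. The change between the 2 comparisons is the interaction given above, which called no gene.

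Among the calls with HDCA, only that of Fbln1 stood without each single library. With the term for Y-linked expression all 3 ended, at 0.65 for Fbln1 (limma adjusted p = 0.937), 0.40 for Mfap4 (0.999) and 0.35 for Fbln5 (0.956), in a fit that called 4 genes in all and took the size of that term from the MDR libraries alone. The Mfap4 call ended without any 1 of the 6 BDL_H and MDR_H libraries, with limma adjusted p from 0.0501 without MDR_H replicate 1 to 0.0839 without MDR_H replicate 2, and with limma-voom (0.0551). The Fbln5 call ended without MDR_H replicate 2 (0.0683) or 3 (0.0538) and with quantile normalization (0.0548). Median-of-ratios scaling kept all 3, at 1.05 for Fbln1, 0.93 for Mfap4 and 0.53 for Fbln5, and moved the split of all genes from 795 higher and 101 lower to 340 and 292. With limma-voom that split was 255 and 279.

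**Figure D4:**
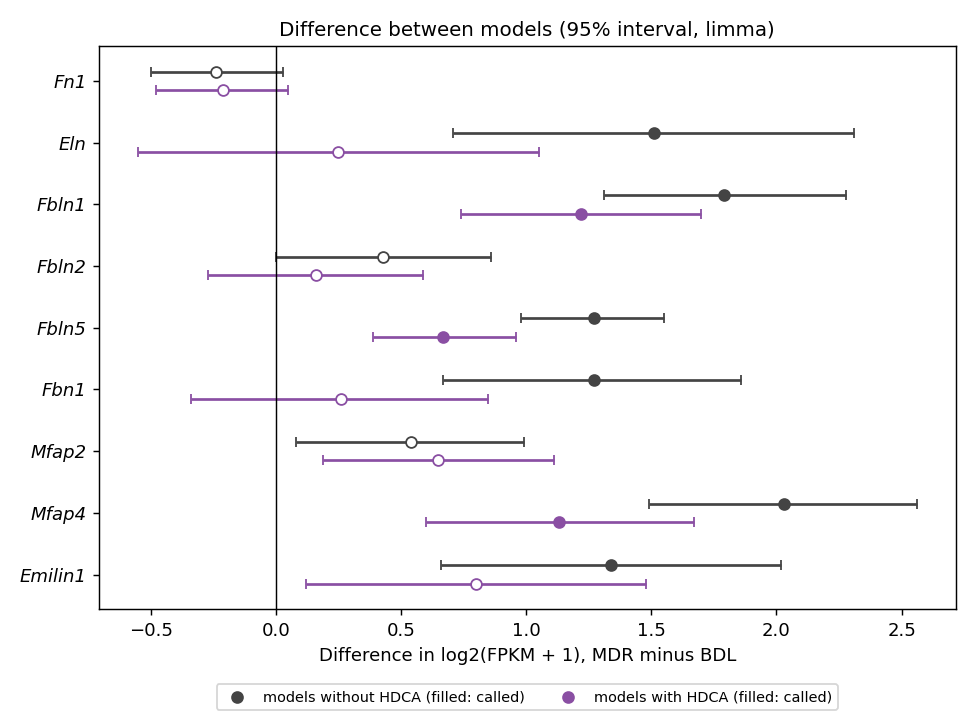
Difference in log2(FPKM + 1), MDR minus BDL (horizontal axis), of the 9 tested genes without HDCA (grey) and with HDCA (purple), with 95% intervals from limma; filled points were called in the fit without a term for Y-linked expression. All 6 called genes without HDCA lie above 1, and with HDCA the 3 called are Fbln1, Mfap4 and Fbln5.

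Stellate cell, portal fibroblast and cholangiocyte markers differed between the models as well, in the fit without a term for Y-linked expression. Marker calls here and in the next paragraph are from that fit. With the term, 11 of all genes were called without HDCA and 4 with it, so these marker calls cannot all stand. Counts of markers called here stand beside 15.1% of all genes called higher without HDCA and 7.36% with it. Stellate cell markers summed to 8.27 to 17.9 FPKM in BDL and 40 to 62.8 in MDR, and 6 of 6 were called higher, while in BDL_H and MDR_H the sums were 18.8 to 20.3 and 46 to 53.1, with 5 of 6 called. Portal fibroblast markers summed to 5.43 to 14.2 in BDL and 37.8 to 76.9 in MDR, with 3 of 4 tested called higher, and to 9.53 to 18.6 and 39.4 to 60.3 in the treated groups, again 3 of 4. For the cholangiocyte markers Krt7, Krt19, Epcam, Sox9 and Cldn4, 4 of 5 were called higher without HDCA and 3 of 5 with it. Their summed FPKM was 17 to 18.9 in BDL and 36.1 to 60.8 in MDR, and 17.2 to 22.8 in BDL_H and 30.1 to 48.8 in MDR_H. Endothelial markers had 3 of 6 called higher without HDCA and 0 of 6 with it, and myofibroblast and smooth muscle markers 1 of 3 and 0 of 3. Macrophage markers (Clec4f, Vsig4, Cd5l, Adgre1, Cd68 and C1qa) had 1 of 6 called higher in each comparison.

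Hepatocyte markers summed to 50597.1 to 54670.3 FPKM in BDL and 34448.7 to 40942.6 in MDR. Alb alone averaged 32955.4 and 24218.2 FPKM there. Of the 6, 1 was called lower, beside 1.07% of all genes. Differences of 3 of the 6 were above 0, Ttr (0.07), Apob (0.01) and Cps1 (0.05). In BDL_H and MDR_H the sums overlapped, at 47383.1 to 61771.3 and 30971.3 to 48161.4, with 0 of 6 called and 2 of 6 above 0. Mesothelial markers (Msln, Upk3b, Upk1b, Lrrn4, Wt1 and Muc16) summed to at most 6.66 FPKM in any library, and Muc16 was under 0.5 FPKM throughout. Of the 2 tested, 0 were called without HDCA and 1 was called lower with it, beside 0.935% of all genes. The part of these cell markers in the differences of the elastic fibre genes was not tested.

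Proteins that build on the same scaffold were counted from a list. The counts between models here and in the lists that follow are from the fit without a term for Y-linked expression. Of 17 listed partners of microfibrils, fibulins and emilins, 16 were in the table and 12 were tested. Between untreated models 11 of the 12 were called higher and 0 lower, beside 15.1% of all genes called higher. Of the 12, Fbn2, Ltbp1, Ltbp2, Ltbp3 and Mmrn1 passed the filter on low values only with the help of MDR and MDR_H libraries. Adamtsl2, a secreted protein that binds fibrillin and latent TGF-beta binding proteins, was at 1.2, 1.66 and 2.8 FPKM in BDL and 7.1, 10.6 and 11.7 in MDR (1.92 ± 0.26, limma adjusted p = 0.00259). Mmrn1, multimerin-1 of the EMILIN family, differed by 1.61 ± 0.20 (0.00181) and Efemp1, fibulin-3, by 1.52 ± 0.26 (0.00541). With HDCA 4 of the 12 were called higher, beside 7.36% of all genes, among them Mmrn1 (1.03 ± 0.20, 0.0169), Efemp1 (1.01 ± 0.26, 0.0431) and Adamtsl2 (0.98 ± 0.26, 0.045). The other is Ltbp2 (1.20, 0.048), and the partner not called without HDCA is Emilin2 (-0.11), both named after their values were seen. For HDCA in BDL all 12 differences were above 0 and none was called. The 3 with the smallest p were Adamtsl2 (0.77 ± 0.26), Ltbp4 (0.88 ± 0.37), a latent TGF-beta binding protein needed for elastogenesis, and Mmrn1 (0.45 ± 0.20). For HDCA in MDR 1 of 12 was above 0 and none was called, with Ltbp3 at -0.28 ± 0.24, Adamts10 at -0.22 ± 0.20 and Fbn2, a second fibrillin, at -0.20 ± 0.22.

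Of the 6 crosslinking enzymes, 2 were called higher in untreated MDR than BDL, beside 15.1% of all genes. They were Loxl1, the lysyl oxidase that acts on elastin with fibulin-5, at 1.24, 1.94 and 2.13 FPKM in BDL and 5.61, 9.97 and 6.82 in MDR (1.60 ± 0.30, limma adjusted p = 0.00775), and Loxl3 (0.54 ± 0.13, 0.0204), which passed the filter only with the help of MDR and MDR_H libraries, as Lox did. Loxl4 stood at 0.84 ± 0.30 (0.0777) without HDCA and at 1.08 ± 0.30 (0.0512) with it, where 0 of 6 were called and Loxl1 was at 0.93 ± 0.30 (0.0772) and Loxl3 at 0.31 ± 0.13 (0.144). With HDCA in BDL, Lox was at 0.38 ± 0.18, Loxl1 at 0.40 ± 0.30 and Loxl2 at 0.30 ± 0.27. With HDCA in MDR, Loxl1 was at -0.27 ± 0.30, Loxl2 at -0.30 ± 0.27 and Loxl4 at 0.40 ± 0.30. None of these HDCA differences was called.

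Of 6 listed proteases that degrade elastin, 4 were tested. All 4 were called higher in untreated MDR than BDL, beside 15.1% of all genes. With HDCA 3 of the 4 were called higher, beside 7.36% of all genes, and Ctss was not called (limma adjusted p = 0.0578). Elane and Mmp9, too low to be tested, had lower means in MDR (0.0296 and 0.486 FPKM) than in BDL (0.156 and 0.648). Mmp12, macrophage elastase, was at 2.15, 2.24 and 2.72 FPKM in BDL and 7.46, 17.4 and 12 in MDR (1.91 ± 0.46, limma adjusted p = 0.02), and differed by 2.15 ± 0.46 (0.0233) between the treated groups. Mmp2, a gelatinase of mesenchymal cells, differed by 2.01 ± 0.35 (0.00554) without and 1.60 ± 0.35 (0.0251) with HDCA, and Ctsk, the protease cathepsin K, by 1.35 ± 0.20 (0.0034) and 1.36 ± 0.20 (0.00663), though Ctsk passed the filter only with the help of MDR and MDR_H libraries. Neither HDCA comparison called any of the 4. In BDL, Mmp12 stood at -0.38 ± 0.46, Mmp2 at 0.33 ± 0.35 and Ctsk at -0.16 ± 0.20, and in MDR, Mmp12 at -0.14 ± 0.46, Ctss at 0.08 ± 0.32 and Ctsk at -0.15 ± 0.20.

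Receptors for fibronectin and elastic fibres, of which 8 of 10 were tested, include integrins and a syndecan. Of these 8, 2 were called higher between untreated models, beside 15.1% of all genes: Itga8, an integrin chain of stellate cells and smooth muscle, at 1.80 ± 0.28 (limma adjusted p = 0.00354) and Itgb5 at 0.89 ± 0.24 (0.0305). Itga9 was at 0.98 ± 0.32 (0.0567). Itga8 and Itgb3 passed the filter only with the help of MDR and MDR_H libraries. With HDCA 1 was called, beside 7.36% of all genes, Itga8 (1.38 ± 0.28, 0.0187), while Itgb5 (0.69 ± 0.24, 0.0914) and Itgav (0.59 ± 0.23, 0.123) were not. None was called for HDCA. In BDL the 3 with the smallest p were Itgb3 (0.48 ± 0.25), Sdc4 (-0.18 ± 0.15) and Itga8 (0.32 ± 0.28), and in MDR they were Sdc4 (0.11 ± 0.15), Itgb5 (-0.15 ± 0.24) and Itga9 (-0.12 ± 0.32).

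TGF-beta signalling induces many matrix genes, and latent TGF-beta is stored on fibronectin and fibrillin. Of the 6 ligands and receptors, 5 were called higher in untreated MDR than BDL, beside 15.1% of all genes. Among the 5 were Tgfb3 (1.41 ± 0.23, limma adjusted p = 0.00432), Tgfbr3 (0.77 ± 0.16, 0.011) and Tgfbr1 (0.75 ± 0.18, 0.0209). The exception was Tgfb1 (0.63), named after its value was seen, and Tgfb2 and Tgfb3 passed the filter only with the help of MDR and MDR_H libraries. With HDCA only Tgfb3 was called (1.06 ± 0.23, 0.025), beside 7.36% of all genes called higher. Tgfb2 (0.62 ± 0.23, 0.102) and Tgfbr1 (0.38 ± 0.18, 0.192) were not called. The co-receptor Tgfbr3 was at 0.641, 0.857 and 1.31 FPKM in BDL and 1.73, 2.01 and 2.01 in BDL_H, groups that did not overlap (0.60 ± 0.16, limma adjusted p = 1). Tgfb1 stood at 0.45 ± 0.40 and Tgfb3 at 0.24 ± 0.23 for HDCA in BDL. In MDR, Tgfbr2 stood at -0.23 ± 0.26, Tgfbr1 at -0.21 ± 0.18 and Tgfb2 at -0.15 ± 0.23. None of these HDCA differences was called.

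In the interaction, the smallest p of each list belonged to Adamtsl2 (-0.94 ± 0.37), Lox (-0.52 ± 0.26), Mmp2 (-0.41 ± 0.49), Sdc4 (0.29 ± 0.22) and Tgfbr3 (-0.59 ± 0.23), and none was called. The next were Ltbp4 (-1.13 ± 0.53), Mmrn1 (-0.58 ± 0.28), Loxl1 (-0.67 ± 0.42), Loxl2 (-0.59 ± 0.38), Tgfbr1 (-0.36 ± 0.26), Tgfbr2 (-0.43 ± 0.37), Itga8 (-0.42 ± 0.39), Itgb3 (-0.39 ± 0.35), Mmp12 (0.24 ± 0.65) and Ctss (-0.03 ± 0.45). All 12 tested partners of microfibrils and all 6 TGF-beta genes had an interaction below 0, beside 65% of all genes. In the other lists, 2 of the 4 proteases, 1 of the 8 receptors and 1 of the 6 crosslinking enzymes were above 0.

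**Figure D5:**
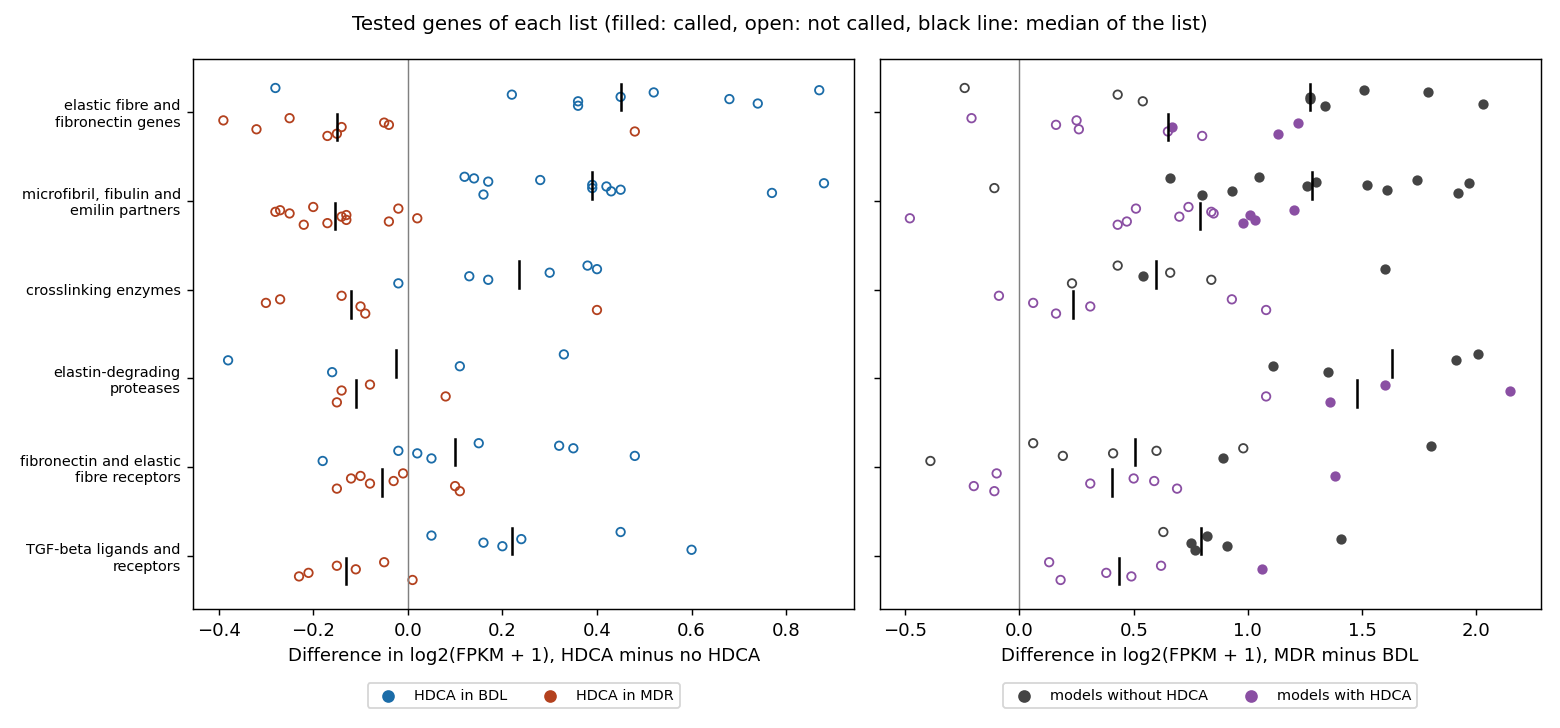
Difference in log2(FPKM + 1) of each tested gene (points) by list (rows), HDCA minus no HDCA on the left and MDR minus BDL on the right; filled points were called, open ones were not, and black lines are list medians. Medians lie at 0.45 and 0.39 for HDCA in BDL in the upper 2 rows.

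Genes whose level across the 12 libraries was most like the mean profile of the 8 tested genes other than Fn1 were Mxra8, Eml1, Bgn, Ntn1 and Nrp2, with Pearson r of 0.99 for Mxra8 and 0.98 for the others. Bgn, the matrix proteoglycan biglycan, averaged 43.6 FPKM in BDL, 66.8 in BDL_H, 190 in MDR and 185 in MDR_H, and Mxra8, a membrane protein of mesenchymal cells, 3.03, 5.47, 11.2 and 10.6. Each gene of the set correlated with the mean of the other tested genes apart from Fn1 at r = 0.75 (Mfap2) to 0.96 (Mfap4), and Fn1 at -0.65. These correlations describe 12 libraries that share group and library differences. The genes most like Fn1, as deposited, were Lrrc58 (r = 0.81), Asns, C4b, Efna1 and Aldh1l1 (0.72 to 0.75), of which C4b, a complement protein, averaged 395 FPKM in BDL and 239 in MDR.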

How the data were processed

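Per the labels' protocols, liver RNA was taken up in TRIzol and its polyA fraction made into libraries (VAHTS Universal V6 kit). Tools in the submitters' processing notes are HISAT2 2.0.5, featureCounts 1.5.0-p3, fastp, CASAVA 1.8 and DESeq2 1.20.0, with build GRCm38 (mm10). The sources used here give neither strand use nor annotation release. If strand was ignored, reads of overlapping or antisense genes cannot be told apart. The authors deposited 1 table of FPKM values for 16970 gene symbols in 12 libraries. Whole fragments were recovered from the deposited FPKM steps, with 99.99% of genes whole in every library within 0.02 of a fragment, and served limma-voom, an alternative that called 992 genes between untreated models.

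FPKM values were transformed as log2(FPKM + 1), a scale that understates fold changes of low genes. The test took the 10805 genes that reached 1 FPKM in 3 or more of the 12 libraries. Group means were fitted for all 4 groups together with limma 3.58.1 under R 4.3.3, leaving 8 residual degrees of freedom, with limma's trend. Contrasts were HDCA in each model, their difference, and the models without and with HDCA. Tests were two-sided, with Benjamini-Hochberg adjustment over all 10805 genes, and a call is an adjusted p under 0.05. The fit was tried on simulated data.

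All 10 genes of the set are described. In each pathway list and comparison, the 3 genes with the smallest p are named, and for likeness the 5 genes with the highest Pearson r. The genes and lists were chosen with earlier results of these data known. Between MDR and MDR_H, libraries of 1 number deviated together from their group means, with r of 0.438, 0.312 and 0.548, so those numbers were taken as pairs, from the values alone, while between BDL and BDL_H r ran from -0.43 to 0.431 and they were not. By the same measure BDL replicate 1 and BDL_H replicate 2, which differ in number, had r of 0.548. Gene coordinates are from GENCODE on GRCm38, matched by symbol. Promoters are from RefSeq on GRCm38.p6. Intervals of fragment counts were not used. 1 further cholangiocyte marker is not reported here.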

Additional observations from a re-analysis of the deposited data

How the results depend on the processing

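The differences of the 9 tested genes were recomputed under 10 planned settings, and in fits without 1 library each. Across the 10 settings, 84 of 84 values kept their direction and side of the threshold for HDCA in BDL, 82 of 84 for HDCA in MDR, 73 of 75 for the interaction, 78 of 84 between untreated models and 79 of 84 between treated ones. The 10 settings do not include the main fit itself, and 1 of them leaves out BDL replicate 1 and BDL_H replicate 2 together. Changing only which genes were tested, using only the compared libraries, or pairing libraries by replicate number left the differences at their main values. For HDCA in BDL, Eln was 0.87 in the main fit and in each of these, so such settings could not turn a sign. Fits without 1 library are not counted, and Emilin1 turned to -0.05 for HDCA in BDL without BDL replicate 1. Within the counts, the values that turned sign were small. With HDCA in MDR, Fbln1 was 0.01 with array weights and Fbln2 was 0.01 with quantile normalization. In the interaction, Mfap2 was -0.04 with a pseudocount of 0.1 and -0.06 with limma-voom. Between treated models Fbln2 was -0.09 with quantile normalization. Outside these counts, in settings added after the data were seen, Fn1 turned to 0.01 for HDCA in MDR by matching depth and to -0.16 in the interaction with only its 6 whole values. With a term for Y-linked expression, Mfap2 turned to -0.02 in the interaction, and between treated models Eln turned to -0.31, Fbln2 to -0.33 and Fbn1 to -0.30. That term left 11 genes called between untreated and 4 between treated models, 0 of the set in both, and 0 for HDCA in BDL or MDR. The cause was not tested.

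Without 1 library, the difference with HDCA in BDL ranged from -0.05 to 0.66 for Emilin1. In MDR it ranged from -0.31 to 0.10 for Fbln1, -0.21 to 0.10 for Fbln2, -0.40 to 0.11 for Mfap4 and -0.30 to 0.00 for Emilin1, and in the interaction from -0.05 to 0.11 for Fn1 and -0.04 to 0.37 for Mfap2.

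Counts of calls moved more. Between untreated models, 1746 genes were called, against 616 with a mean FPKM of at least 5, 1052 with median-of-ratios scaling, 941 with quantile normalization (548 higher and 393 lower), 992 with limma-voom, 4947 with array weights and 729 with only the libraries compared. Of the genes of the set 6 were called, 3 of the 4 left at a mean FPKM of at least 5, and 9 with array weights. Between treated models 896 genes were called, against 436, 534 with limma-voom, 2750 with array weights, 542 with only the libraries compared and 589 with the replicate block, with quantile normalization splitting 719 into 380 higher and 339 lower. Of the set, 3 were called, 1 at a mean FPKM of at least 5 and 5 with array weights. Array weights, whose estimate stopped before it converged, also called 1 gene for HDCA in BDL, not in the set, and gave BDL replicate 1 and BDL_H replicate 2 weights of 0.134 and 0.171. The replicate block, a pairing by number, changed no call of a gene in the set.

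Without 1 library, 489 (without MDR replicate 2) to 2346 genes and 3 to 6 of the set were called between untreated models, with 688 genes when MDR replicate 3 was left out, 865 for BDL replicate 2 and 1151 for BDL replicate 1. Between treated models the range was 167 (without MDR_H replicate 2) to 1550 genes (without BDL replicate 1) and 1 to 4 of the set, with 1 without MDR_H replicate 2 or 3. A count also below 896 by more than 1.5 times came without MDR_H replicate 1 (238) or 3 (234), BDL_H replicate 1 (400), 2 (259) or 3 (460), MDR replicate 3 (504) and BDL replicate 2 (577).

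Depth limits Mfap5 and Mfap2, which had at most 13 and 99 fragments in a library. With 3 libraries a group, 0 calls for HDCA do not show that these genes kept their level.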

Other observations

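Mmp9, which encodes a gelatinase that cleaves elastin and fibronectin, was the other gene whose values did not convert to whole fragments. It was whole at its own depth in 7 of 12 libraries. The values listed for BDL replicate 2 (0.681 FPKM) and BDL_H replicate 1 (0.974) were whole at each other's depth, as were those listed for BDL replicate 3 (0.676) and BDL_H replicate 2 (0.921), and that of MDR replicate 2 (0.366) was whole at none. As in Fn1, the matched values thus lay across an untreated and a treated group of the same model. Mmp9 was below the level tested.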
